A study of Homo sapiens with 6 samples.

Results

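Small nucleolar RNA (snoRNA) host genes are genes whose introns carry snoRNAs, and 31 of the 60649 gene rows counted in OVCAR5 cells belong to them. The rows were chosen by name, as every long noncoding RNA (lncRNA) gene called SNHG with a number in GENCODE release 44, together with GAS5, EPB41L4A-AS1 and ZFAS1. All 31 are annotated there as lncRNA genes, and 27 of them had enough counts to be tested among 22038 genes. OVCAR5 is an established human ovarian cancer cell line of epithelial type. It was transduced with lentivirus carrying METTL3, the catalytic subunit of the m6A RNA methyltransferase, or with an empty vector, and both lines were selected with puromycin. Poly(A)+ RNA was sequenced from 3 METTL3-overexpressing libraries (METTL3) and 3 control libraries (vector), and no drug besides puromycin is named for them. The controls carry the empty vector in one part of the labels and are called parental in another, each line is a selected pool, and nothing says that the libraries came from separate cultures, so p-values measure only the spread between these libraries.

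A snoRNA host gene makes 2 products from one precursor RNA. The introns, once spliced out, are trimmed to snoRNAs. Box C/D snoRNAs guide 2′-O-methylation of ribosomal RNA, box H/ACA snoRNAs guide its pseudouridylation, and related RNAs of Cajal bodies guide the same changes on spliceosomal RNAs. The joined exons encode no conserved protein in most of these genes, and several of the spliced RNAs, GAS5, SNHG1 and ZFAS1 among them, are known to be bound by ribosomes and removed by nonsense-mediated decay, so that they are short-lived. Many host genes start, as ribosomal protein genes do, with a terminal oligopyrimidine tract, a run of C and T at the first transcribed base that ties translation of the RNA to growth signals through mTOR.

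The annotated C/D snoRNAs of GAS5 and the one counted snoRNA with the most reads, SNORD104 of SNHG25, show what these genes carry. They are given in the 5′ to 3′ direction of the RNA, from GRCh38, with box C (searched as ATGATGA or GTGATGA near the 5′ end) and box D (CTGA near the 3′ end) in capitals. RefSeq places 10 C/D snoRNAs inside GAS5, of which 10 hold box D and 5 hold box C in these exact letters. The first 3 are from GAS5, at chr1:173865968-173866028, chr1:173866635-173866715 and chr1:173864146-173864222 on the minus strand, and the last is at chr17:64146083-64146152 on the plus strand.
SNORD44: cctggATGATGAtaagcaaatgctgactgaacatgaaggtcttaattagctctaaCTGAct
SNORD76: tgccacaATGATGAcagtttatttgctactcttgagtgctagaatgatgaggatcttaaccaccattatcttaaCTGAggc
SNORD81: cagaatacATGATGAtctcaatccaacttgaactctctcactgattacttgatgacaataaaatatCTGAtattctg
SNORD104: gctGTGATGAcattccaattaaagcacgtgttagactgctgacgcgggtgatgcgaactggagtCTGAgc

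The start of the host gene is the other sequence of interest, for the pyrimidine tract. The windows below run from 10 bases before the RefSeq start to the base 30 bases on, on the strand of the gene (GRCh38.p14). Capitals mark a pyrimidine tract, searched as a C followed by at least 4 C or T that begins within 5 bases of the start. The first 4 genes have it and the last pair, GAS5 and SNHG1, do not at the RefSeq start. For GAS5 that start (173869045) lies upstream of the counted GENCODE gene, whose 5′ end is at 173868882. The start of the counted GAS5 gene was therefore not searched. The windows lie at chr20:49278632-49278671 (ZFAS1, plus), chr16:2155329-2155368 (SNHG19, minus), chr6:31834906-31834945 (SNHG32, plus), chr6:85678704-85678743 (SNHG5, minus), chr1:173869016-173869055 (GAS5, minus) and chr11:62855856-62855895 (SNHG1, minus).
ZFAS1: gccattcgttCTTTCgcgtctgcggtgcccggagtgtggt
SNHG19: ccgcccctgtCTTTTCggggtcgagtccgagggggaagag
SNHG32: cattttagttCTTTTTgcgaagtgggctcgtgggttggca
SNHG5: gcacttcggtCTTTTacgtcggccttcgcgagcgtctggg
GAS5: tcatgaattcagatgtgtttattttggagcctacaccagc
SNHG1: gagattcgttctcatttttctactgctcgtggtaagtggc

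Of the 27 host genes with a RefSeq start window, 12 (44.4%) held the tract. The share was 81% over 63 start sites of cytosolic ribosomal protein genes and 21.1% over 27305 start sites of all genes in the table. The other genes with the tract were SNHG4, SNHG7, SNHG8, SNHG12, SNHG16, SNHG17, SNHG18 and SNHG31. A search in a fixed window around one annotated start says nothing of other start sites of the same gene. The motif GGACT, the commonest sequence at m6A sites, was present in the longest transcript of 23 of the 31 host genes, against 62.72% of all lncRNA genes. This presence was not adjusted for transcript length. The median was 0.66 GGACT per kilobase in the host genes and 0.64 over all genes.

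The libraries were deep and total counts ranged from 96633925 to 125463386, so a count of 0 in a library allows up to 3 counts, which was at most 0.031 CPM. CPM here are counts scaled to the library total, and all other CPM values also use edgeR's TMM factors. METTL3 itself checked the labels, at 152, 166 and 175 CPM in METTL3 replicates 1 to 3 and 80.6, 68.6 and 71.6 CPM in vector replicates 1 to 3, or 1.16 higher on the log2 scale (standard error 0.117, edgeR adjusted p = 0.072). The epithelial markers were all present, with KRT8 at 3131 to 5153 CPM and EPCAM at 247 to 483 CPM. Among 12 stromal, endothelial and immune markers COL1A1 reached 8.04 to 18.1 CPM, PDGFRB and ACTA2 lay below 3 CPM, and PTPRC and CD3E were at 0 to 0.071 CPM. Replicate 1 of both groups stood apart, as the highest library for 25.13% (METTL3) and 30.09% (vector) of all tested genes against 8.59% to 15.6% for the other 4 libraries, and the comparison of the host genes is therefore given with and without vector replicate 1. In bulk RNA, fewer cells with a transcript and less of the transcript per cell cannot be told apart.

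The host genes spanned a wide range of levels. Per kilobase of annotated exon, the order of the mean level was SNHG1 (25.5 CPM per kilobase), GAS5 (24.98), SNHG19 (22.1), SNHG29 (18.2), SNHG6 (18.0), SNHG32 (15.6), SNHG15 (10.9) and SNHG16 (9.51). Ranges over the 6 libraries overlapped between all neighbours in this order. Neighbours were not compared library by library, so the overlap does not say whether they differ. The 6 highest all hold box C/D snoRNAs, GAS5 with the H/ACA RNA SNORA103 besides, and SNHG15 is the highest that holds only a box H/ACA snoRNA. SNHG19, a gene of only 614 exonic bases, ranked high on this scale although its CPM lay below 25 in every library. At the low end of the tested genes were SNHG25 at 0.836, SNHG5 at 0.258 and SNHG14 at 0.00125 CPM per kilobase. The annotated exons of SNHG5 add up to 12604 bases over 89 transcripts, which lowers its value per kilobase.

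Without scaling by length, 3 genes made up 45.9% of the summed level of all host genes. SNHG29, which holds SNORD49A, SNORD49B and SNORD65, gave 19.3%, GAS5 gave 14.6% and SNHG1 gave 12.02%. The summed level was 765, 753 and 845 CPM in METTL3 replicates 1 to 3, a mean of 788 ± 49.8 (SD, n = 3). It was 1094, 786 and 824 CPM in vector replicates 1 to 3, a mean of 901 ± 168 (SD, n = 3). Vector replicate 1 thus lay above all other libraries, and the other 5 lay between 753 and 845 CPM.

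**Figure D1:**
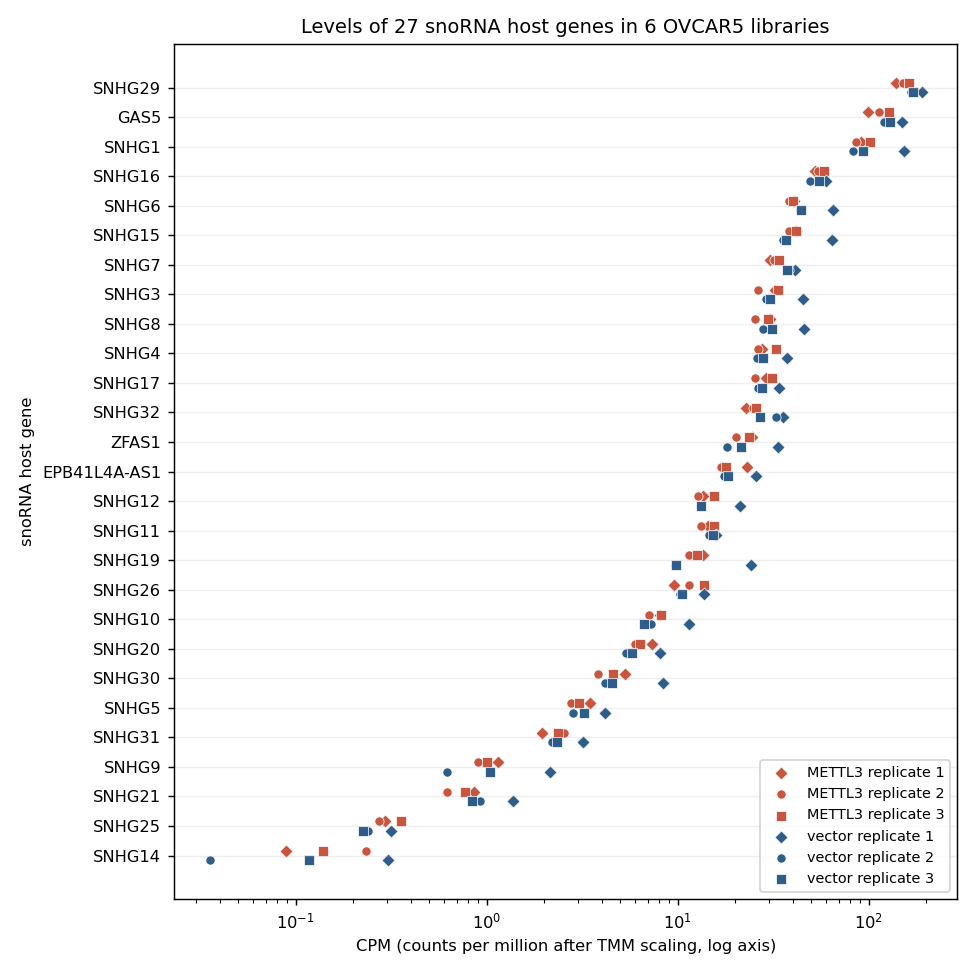
Level of each of the 27 tested snoRNA host genes (rows) in CPM on a log axis, with 1 point per library, METTL3 in red and vector in blue, and diamonds for replicate 1. Vector replicate 1 is the rightmost point for 25 of the 27 genes, and levels run from SNHG29 at 139 to 189.8 CPM down to SNHG14 below 0.31 CPM.

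Among the hosts of box C/D snoRNAs, the leading 3 by CPM differed in how the groups lay. GAS5 (ENSG00000234741, chr1:173858559-173868882, minus strand), first found as a transcript of growth-arrested cells, was at 99.7, 113 and 127 CPM with METTL3 and 149.6, 121 and 129 CPM with the vector. SNHG1 (ENSG00000255717, chr11:62851978-62855953, minus strand), the host of SNORD22 and SNORD25 to SNORD31, was at 91.7, 86.2 and 102 CPM with METTL3 and 152, 82.8 and 93.8 CPM with the vector. SNHG29 (ENSG00000175061, chr17:16438767-16480249, plus strand) was at 139, 152 and 162 CPM with METTL3 and 189.8, 166 and 170.1 CPM with the vector. In GAS5 and SNHG1 the groups overlapped, while all 3 METTL3 libraries of SNHG29 lay below all 3 vector libraries.

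SNHG16 (ENSG00000163597, chr17:76557727-76670985, plus strand), the host of SNORD1A, SNORD1B and SNORD1C, was at 52.6, 54.4 and 58.5 CPM with METTL3 and 59.5, 49.6 and 55.0 CPM with the vector. SNHG6 (ENSG00000245910, chr8:66920561-66926398, minus strand), which holds SNORD87, was at 40.8, 38.5 and 40.3 CPM against 64.7, 43.9 and 44.4 CPM. SNHG32 (ENSG00000204387, chr6:31834608-31839766, plus strand), which holds SNORD48 and SNORD52, was at 22.7, 24.7 and 25.7 CPM against 35.7, 32.8 and 26.96 CPM. SNHG6 and SNHG32 did not overlap between groups, whereas SNHG16 did.

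SNHG19 (ENSG00000260260, chr16:2154792-2155405, minus strand), the host of SNORD60, was at 13.6, 11.5 and 12.6 CPM with METTL3 and 24.2, 9.65 and 9.75 CPM with the vector. Its highest and its lowest value were thus both vector libraries. SNHG26 (ENSG00000228649, chr7:22854126-22872952, plus strand), which holds SNORD93, was at 9.57, 11.5 and 13.8 CPM with METTL3 and 13.7, 10.3 and 10.6 CPM with the vector. ZFAS1, which lies head to head with ZNFX1 and holds SNORD12, SNORD12B and SNORD12C, was at 20.3 to 24.4 CPM with METTL3 and 18.1 to 33.3 CPM with the vector. SNHG30 (SNORD7), SNHG5 (SNORD50B) and SNHG25 (SNORD104) ran at 3.81 to 8.42, 2.77 to 4.16 and 0.226 to 0.357 CPM over the 6 libraries.

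Among the hosts of box H/ACA snoRNAs, SNHG15 (ENSG00000232956, chr7:44983019-44986961, minus strand), which holds SNORA9, was at 41.7, 38.3 and 41.8 CPM with METTL3 and 64.6, 35.4 and 36.9 CPM with the vector. SNHG7 (ENSG00000233016, chr9:136721366-136728184, minus strand), which holds SNORA17A and SNORA17B, was at 30.6, 32.1 and 34.0 CPM against 41.4, 38.3 and 37.2 CPM, and its groups did not overlap. SNHG3, whose SNORA73A and SNORA73B take part in the first cleavages of the ribosomal RNA precursor, ran from 26.4 to 45.3 CPM over the 6 libraries. SNHG8, SNHG4 and SNHG17 ran from 25.3 to 46.0 CPM together, EPB41L4A-AS1 (SNORA13) from 16.8 to 25.7, SNHG11 from 13.3 to 15.9, SNHG31 from 1.96 to 3.18 and SNHG9 from 0.619 to 2.14 CPM. SNHG12, which holds both a C/D snoRNA (SNORD99) and H/ACA snoRNAs, was at 12.7 to 21.2 CPM.

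The 3 tested hosts of Cajal body RNAs lay at 0.854 to 1.49 CPM per kilobase of exon, and SNHG22 (SCARNA17), which was not tested, at 0.0283. In CPM, SNHG10 (SCARNA13) ran from 6.63 to 11.4 CPM, SNHG20 (SCARNA16) from 5.35 to 8.06 CPM and SNHG21 (SCARNA15) from 0.621 to 1.38 CPM. SNHG14, the imprinted transcript of the Prader-Willi region with 84 annotated snoRNA rows of the SNORD115, SNORD116 and neighbouring families, had 4 to 29 counts in a library. Below the filter were SNHG22 (3 to 13 counts), SNHG18 (4 counts in vector replicate 1 and 0 elsewhere), SNHG27 (1 count in METTL3 replicate 2 and 4 in vector replicate 2) and SNHG28 (1 count in vector replicates 1 and 2). SNHG18, SNHG27 and SNHG28 were at or near the limit that a count of 0 allows in all libraries.

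Vector replicate 1 held the highest value for 25 of the 27 tested host genes, and it was the highest library for 30.09% of all tested genes. The other pair were SNHG26, highest in METTL3 replicate 3 at 13.8 CPM with vector replicate 1 at 13.7 CPM, and SNHG25. On the log2 CPM scale, vector replicate 1 exceeded the mean of vector replicates 2 and 3 in all 27 host genes, against 54.51% of all tested genes. The median difference was 0.54 in the host genes and 0.065 over all tested genes, and 15 host genes exceeded 0.5, against 20.11% of all tested genes. METTL3 replicate 1 did not share this: its median difference from METTL3 replicates 2 and 3 was 0.041, with 15 host genes above 0 and 12 below, and 0 host genes over 0.5 against 17.76% of all tested genes.

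The host genes differed widely in the size of this excess. SNHG19 was 2.49-fold higher in vector replicate 1 than the mean of vector replicates 2 and 3, SNHG9 2.58-fold and SNHG30 1.94-fold. SNHG15 was 1.78-fold higher, SNHG1 1.73-fold and ZFAS1 1.68-fold. At the other end, SNHG11 was 1.06-fold, SNHG7 1.10-fold, SNHG29 1.13-fold and SNHG16 1.14-fold higher, and GAS5 was 1.20-fold higher. The ratio for SNHG14 was 3.995, from 29 counts against 4 and 13. Hosts of C/D and of H/ACA snoRNAs stood at both ends. The 11 tested genes with a pyrimidine tract at the start had a median log2 difference of 0.47 and the 12 without it 0.57. All genes were searched only at the RefSeq start. For GAS5 and SNHG14, both among the 12, that start lies upstream of the counted GENCODE gene (for SNHG14, 24823608 against 24978583). Other RefSeq starts also differ from the 5′ end of the counted gene, as in SNHG12.

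**Figure D2:**
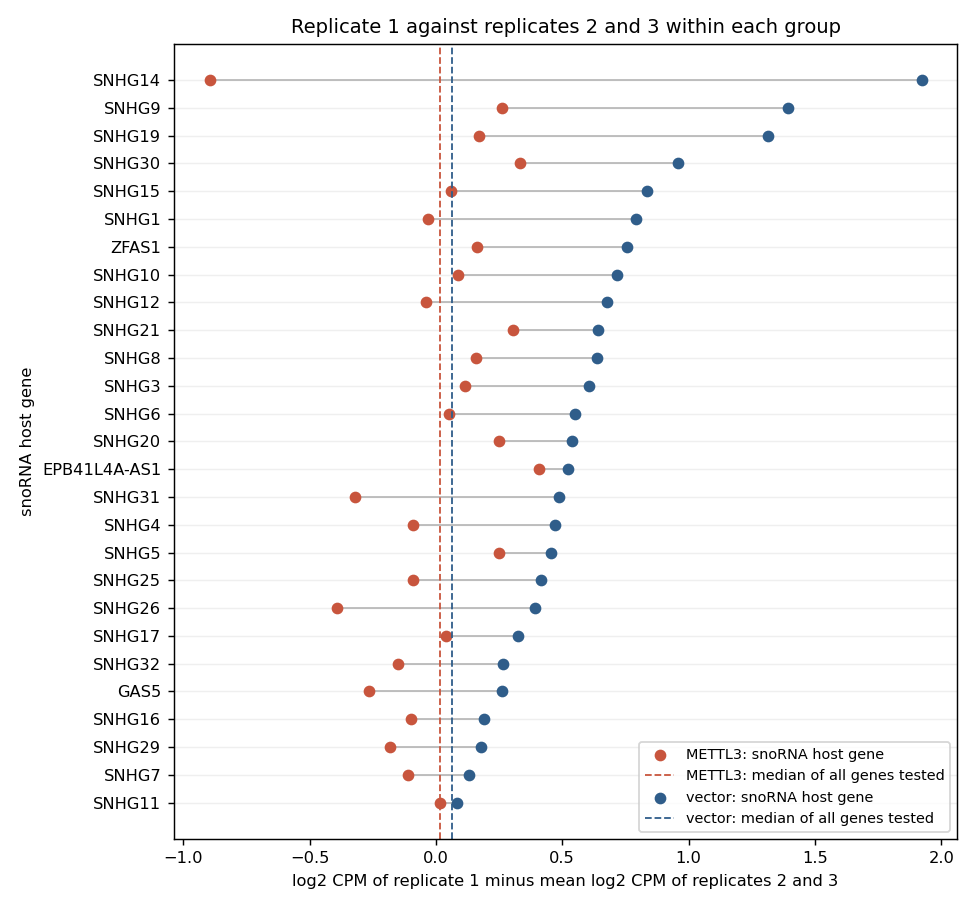
Difference in log2 CPM between replicate 1 and the mean of replicates 2 and 3 for each tested host gene (rows), with METTL3 in red, vector in blue, and dashed lines at the median of all genes tested in each group. All 27 blue points lie above 0, from 0.084 (SNHG11) to 1.92 (SNHG14), while the red points lie on both sides of 0.

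Other measures moved with vector replicate 1. Correction within every library for GC content and length of the longest transcript left a median excess of 0.43. After it, 26 host genes were above 0. Exonic length and the excess had a Spearman correlation of -0.29 over the 27 host genes and of -0.24 over all tested genes, as a description across genes of the same library. The summed level of the 12 epithelial markers was 10197 CPM in vector replicate 1 and 6726 and 6615 CPM in the other vector libraries. With METTL3 it was 8254 to 9353 CPM. KRT8 gave 5153 CPM of the sum in vector replicate 1. Of the 12 markers, 11 exceeded the mean of vector replicates 2 and 3 there. MUC1 was lower, at 26.96 CPM against 78.7 and 71.9 CPM. The summed level of the stromal, endothelial and immune markers was 10.8 CPM in vector replicate 1 and 20.5 to 22.2 CPM elsewhere. Most of that sum was COL1A1, at 8.04 CPM in vector replicate 1 and 16.5 to 18.1 CPM elsewhere. Of the 7 tested markers of this list, 2 exceeded the mean of vector replicates 2 and 3. Between the groups, all 12 epithelial markers were higher with METTL3 (median log2 fold change 0.25), with CDH1 at 0.99 (standard error 0.131, edgeR adjusted p = 0.17) and MUC1 at 0.95 (standard error 0.367, adjusted p = 0.565). In replicates 2 and 3 edgeR called 11 of the 12 higher, where it called 15.2% of all genes tested, and MUC1 was at 0.37. Of the 7 tested stromal, endothelial and immune markers 4 were higher and 3 lower, with ACTA2 at 0.51 (adjusted p = 0.609) and CDH5 at 0.58 (adjusted p = 0.642). The part of these measures in the values of the host genes was not tested.

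METTL3-overexpressing cells were compared with vector cells to ask whether the host genes changed with METTL3. With all 6 libraries, 22 of the 27 host genes were lower and 5 higher with METTL3, with a median log2 fold change of -0.17 (range -0.48 in SNHG21 to 0.24 in SNHG25). Over all tested genes the median was -0.018 and 52.74% were lower. At an adjusted p under 0.05, edgeR's quasi-likelihood test called 0 host genes, where it called 0% of the 22038 genes tested. At an unadjusted p under 0.05, 2 host genes passed, SNHG32 and SNHG7, both lower, where 3.91% of all tested genes passed as lower (861 genes, with 969 higher). DESeq2 called 225 genes on the same libraries, 0 of them host genes.

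SNHG32 was at -0.38 on the log2 scale (standard error 0.137, unadjusted p = 0.0219, adjusted p = 0.554 from edgeR). SNHG7 had -0.27 (standard error 0.109, unadjusted p = 0.0352, adjusted p = 0.569). The METTL3 libraries of both genes lay below every vector library, as did those of SNHG6 (-0.36, standard error 0.163, adjusted p = 0.613) and SNHG29 (-0.21, standard error 0.117, adjusted p = 0.641). These 4 were the host genes without overlap between groups, all lower with METTL3, and 8.93% of all tested genes were lower without overlap. GAS5 had -0.23 (standard error 0.136, adjusted p = 0.65) and SNHG1 -0.23 (standard error 0.218, adjusted p = 0.76), and in both the difference lay within the spread between replicates. Without vector replicate 1, GAS5 was at -0.14 (standard error 0.114, adjusted p = 0.58) and in replicates 2 and 3 alone at -0.059 (standard error 0.0635, adjusted p = 0.619). SNHG16 was at 0.013 (standard error 0.114, adjusted p = 0.982).

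The direction of the median rested on vector replicate 1. Without METTL3 replicate 1 the median log2 fold change of the host genes stayed below 0, at -0.15. Between libraries of the same number, all 27 host genes were lower with METTL3 in replicate 1, with a median log2 difference of -0.52. In replicate 2, 15 were lower and 12 higher (median -0.037), and in replicate 3, 10 were lower and 17 higher (median 0.088). Without vector replicate 1, 19 host genes were higher and 8 lower, the median log2 fold change was 0.078, and edgeR called 0 of them where it called 1.62% of all tested genes. There 3 host genes had an unadjusted p under 0.05, where 16.2% of all tested genes did, and 8 lay without overlap between groups (4 higher, 4 lower), where 39.6% of all tested genes did. The smallest adjusted p among the host genes was 0.176, for SNHG19 at a log2 fold change of 0.37.

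Replicates 2 and 3 of each group were also compared alone, a choice made with the values known. Here 16 host genes were higher and 11 lower with METTL3, the median log2 fold change was 0.083 against -0.003 over all tested genes, and 21 of the 27 lay within 0.2 of 0. The median standard error of a host gene was 0.088, against 0.197 with all 6 libraries. edgeR called 2 host genes, where it called 15.2% of all genes tested, and 6 had an unadjusted p under 0.05, where 27.1% of all genes did. With 2 libraries a group, 12 host genes lay without overlap, where 54.8% of all genes did. SNHG19 rose with METTL3 by 0.31 on the log2 scale (standard error 0.0857, adjusted p = 0.0239), and SNHG7 fell by 0.19 on the log2 scale (standard error 0.0611, adjusted p = 0.046). For SNHG19 this is the opposite direction to that of all 6 libraries, -0.21 (standard error 0.339, adjusted p = 0.866).

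With that correction for GC content and transcript length, replicates 2 and 3 gave 4 called host genes, where 21.3% of genes tested were called. There 13 lay without overlap, where 57.9% of all genes did. SNHG19 (0.25, adjusted p = 0.0372), SNHG26 (0.29, adjusted p = 0.0283) and SNHG15 (0.18, adjusted p = 0.0383) were higher with METTL3, and SNHG6 was lower (-0.17, adjusted p = 0.0263). DESeq2 on the same 4 libraries called SNHG19 alone, at 0.32 (adjusted p = 0.0279), where it called 18.4% of all genes with an adjusted p. SNHG7, SNHG32, SNHG6 and SNHG29 were lower with METTL3 with and without the first replicates, at -0.19, -0.25, -0.17 and -0.097 in replicates 2 and 3. Of the 10 genes named in full, SNHG1, SNHG15 and SNHG19 changed sign.

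**Figure D3:**
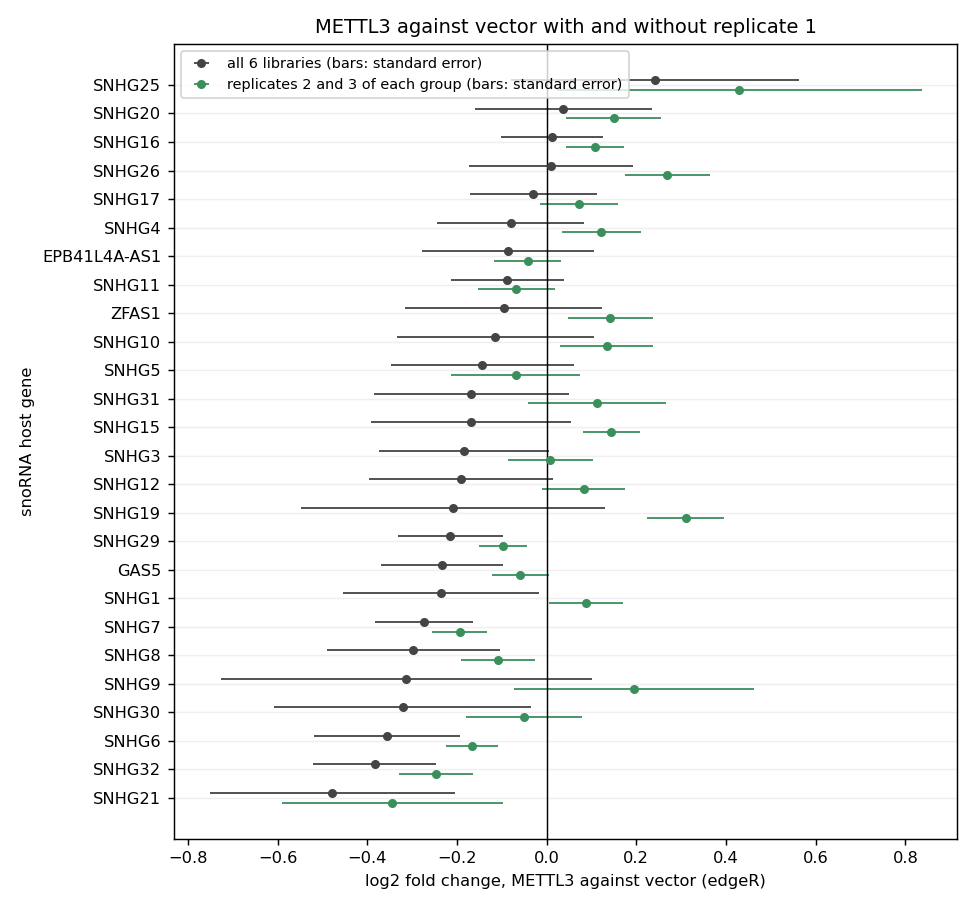
Log2 fold change of METTL3 against vector for 26 tested host genes (rows), from all 6 libraries in grey and from replicates 2 and 3 of each group in green, with standard errors as bars. SNHG14, which has at most 29 counts in a library, is not drawn. SNHG7, SNHG6, SNHG32 and SNHG21 lie below 0 in both, and SNHG19 lies below 0 in one and above 0 in the other.

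Reads of a host gene can be hard to assign, since 21 of the 31 share at least 10% of their exonic bases with other annotated genes. On the opposite strand, 59% of the exonic bases of SNHG6 lie on MCMDC2, 51% of those of EPB41L4A-AS1 on EPB41L4A, 38% of those of SNHG8 on PRSS12 and 30% of those of SNHG7 on DIPK1B. Whether strand was used in counting is not given in the sources used here, so reads of these pairs cannot be told apart. On the same strand, SNHG32 shares 29% and SNHG1 15% of exonic bases, in SNHG1 with its own snoRNAs. SNHG21, which had the lowest log2 fold change of the tested host genes, shares 73% on the same strand with ENSG00000252690. On the opposite strand it shares 34% with FSD2. GAS5 shares 7.7% on the opposite strand, and SNHG29 2.4% on the same strand and 5.6% on the opposite one.

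The snoRNAs inside the host genes were mostly not seen in these libraries. The libraries were made from poly(A)+ RNA, and mature snoRNAs have no poly(A) tail, but the part of this in the counts was not tested. The table has 144 snoRNA or Cajal body RNA rows inside the 31 genes on the same strand, 84 of them in SNHG14, and 14 had at least 1 count. With SNHG14 left aside, 10 of 14 rows that lie outside the annotated exons of the host had a count, and 2 of 46 rows that lie within them in full or in part. A read over both a snoRNA and a host exon belongs to 2 genes, and how such reads were counted is not given in the sources used here. The C/D snoRNAs of GAS5 have no rows under GENCODE names in the table.

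SNORD104, the C/D snoRNA in an intron of SNHG25 printed above, had the most counts. It was at 3.57, 3.13 and 3.00 CPM with METTL3 and 6.23, 2.41 and 2.61 CPM with the vector, with vector replicate 1 again the highest. Its log2 fold change was -0.21 (standard error 0.355, edgeR adjusted p = 0.872), and the sign turned without vector replicate 1 (0.37, standard error 0.163, adjusted p = 0.325) and in replicates 2 and 3 (0.29, standard error 0.143, adjusted p = 0.213). SNORA71B of SNHG17 was at 0.57 to 0.813 CPM, SNORA73B of SNHG3 at 0.29 to 0.736 CPM, SNORD99 of SNHG12 at 0.204 to 0.367 CPM and SNORA13 of EPB41L4A-AS1 at 0.218 to 0.389 CPM. In none of these 4 was vector replicate 1 the highest library. Of the 7 hosted snoRNAs that were tested, edgeR called 0 with all 6 libraries, and the smallest unadjusted p was 0.255, for SNORD93 of SNHG26.

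Genes of the same machinery were set beside the host genes, from lists chosen with earlier results of these data known. The tract was found at 81% of the 63 start sites searched for cytosolic ribosomal protein genes. The 79 genes of that list gave values near those of the host genes. All 79 exceeded vector replicates 2 and 3 in vector replicate 1 (median log2 difference 0.52). With METTL3, 78 were lower over all 6 libraries (median log2 fold change -0.25), and the median was -0.012 in replicates 2 and 3. RPL7 was at 1046, 1269 and 1340 CPM with METTL3 and 2097, 1420 and 1442 CPM with the vector (log2 fold change -0.44, standard error 0.187, edgeR adjusted p = 0.594). RPL17 had -0.59 (standard error 0.249, adjusted p = 0.593). The 20 tested translation factors with a tract had medians of 0.31, -0.20 and -0.023 on the same 3 measures, with EIF3H at -0.32 (standard error 0.128, adjusted p = 0.569) and EIF3E at -0.32 (standard error 0.143, adjusted p = 0.606). The host genes had 0.54, -0.17 and 0.083.

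The proteins that bind the snoRNAs were also lower with METTL3, but their differences in vector replicate 1 were smaller than those of the host genes. The 8 core proteins of snoRNA particles, among them fibrillarin (FBL) and dyskerin (DKC1), were all highest in vector replicate 1 (median log2 difference 0.31), and all 8 were lower with METTL3 (median -0.25). NHP2 had -0.27 (standard error 0.115, edgeR adjusted p = 0.594) and NOP10 -0.26 (standard error 0.141, adjusted p = 0.641). The 13 assembly and export factors were all lower (median -0.15), with RPAP3 at -0.32 (adjusted p = 0.621) and COIL, the scaffold of Cajal bodies, at -0.24 (adjusted p = 0.642). In vector replicate 1 their median log2 difference was 0.13, with 10 of 13 above 0. METTL3 replicate 1 differed from METTL3 replicates 2 and 3 by medians of -0.22 (core) and -0.25 (assembly and export), against 0.041 in the host genes. In replicates 2 and 3 the medians of both lists were -0.054 and 0.0078.

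Nonsense-mediated decay factors did not follow the host genes. Of 19, 9 were higher and 10 lower with METTL3, and vector replicate 1 exceeded vector replicates 2 and 3 by a median of 0.014. UPF3A was at 33.2, 35.8 and 40.2 CPM with METTL3 and 45.2, 47.2 and 48.8 CPM with the vector (log2 fold change -0.37, standard error 0.115, edgeR adjusted p = 0.493), and it fell by 0.34 in replicates 2 and 3 (adjusted p = 0.00244). SMG8 had -0.33 (standard error 0.128, adjusted p = 0.565) and fell by 0.23 in replicates 2 and 3 (adjusted p = 0.0224). There 2 of the 19 were called higher and 2 lower, where 15.2% of all genes tested were called. The 17 protein-coding RNAs known as decay targets had a median of 0.20 in vector replicate 1 and -0.13 with METTL3. Of these, UPP1 had 0.19 (edgeR adjusted p = 0.65) and GADD45B -0.20 (adjusted p = 0.654), while RPL3 and RPL12 stand on the ribosomal list as well.

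Other genes with a snoRNA inside had smaller medians than the host genes in vector replicate 1. The 27 protein-coding hosts outside the ribosome had a median of 0.16 in vector replicate 1 and -0.13 with METTL3, with EIF4A2 at -0.23 (edgeR adjusted p = 0.641) and RNF149 at 0.19 (adjusted p = 0.65). Of 51 other lncRNA genes with a snoRNA inside, 18 were tested, with medians of 0.21 and -0.094. TMEM161B-DT among them rose with METTL3 in replicates 2 and 3 (0.30, adjusted p = 0.0319), at 13.1, 11.7 and 11.9 CPM against 10.8, 10.1 and 9.08 CPM. ENSG00000285877, at 0.0793 to 0.292 CPM, had -0.77 (standard error 0.444, edgeR adjusted p = 0.65). Over all 4502 tested lncRNA genes the medians were 0.23 and -0.0023.

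Short-lived RNAs that code for proteins went the other way in vector replicate 1. The 20 on the list, immediate early genes and the like, had a median log2 difference of -0.36 there, with 4 of 20 above 0, against 27 of 27 host genes. With METTL3, 10 were higher and 10 lower over all 6 libraries (median 0.0085). MYC, which drives ribosome synthesis, was at 120, 113 and 114 CPM with METTL3 and 92.0, 105 and 107 CPM with the vector (log2 fold change 0.19, standard error 0.11, edgeR adjusted p = 0.65), lowest in vector replicate 1 where the host genes were highest. IER3 had 0.23 (standard error 0.115, adjusted p = 0.626). Of 17 m6A writers, erasers and readers, the medians were 0.035 in vector replicate 1 and -0.0045 with METTL3, and ZC3H13, a partner of METTL3, fell by 0.22 in replicates 2 and 3 (adjusted p = 0.0121).

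**Figure D4:**
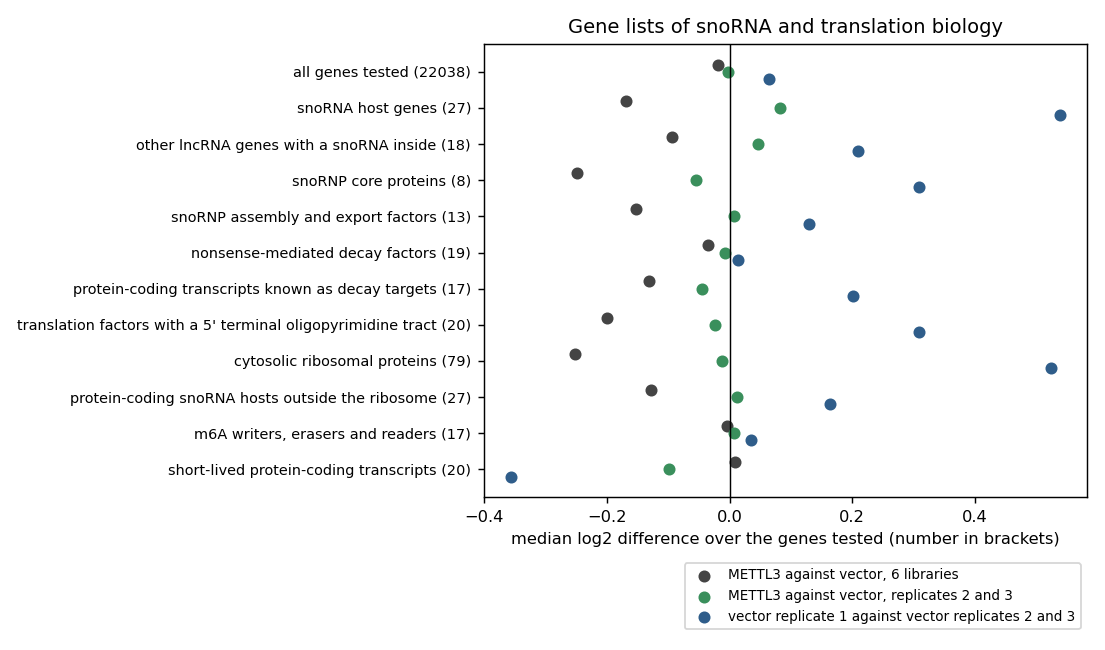
Median log2 difference over the tested genes of each list (rows, number in brackets), for METTL3 against vector in 6 libraries (grey), the same in replicates 2 and 3 (green), and vector replicate 1 against vector replicates 2 and 3 (blue). The blue points of the snoRNA host genes and the ribosomal proteins lie at 0.54 and 0.52, and their green points lie near 0.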

How the data were processed

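RNA-seq was performed on 6 OVCAR5 libraries, 3 METTL3 and 3 vector. The authors aligned reads to hg38 with HISAT2 and counted them per gene with Subread featureCounts (fastp is also named in the submitters' processing notes), and the deposited values are raw counts, without normalization or filtering. Versions, annotation release, strand setting and treatment of reads on several genes are not given in the sources used here. The methods describe an NEBNext kit and single-end reads, the labels a TruSeq Stranded kit and paired-end reads. Between 67.6% and 70.5% of counts from 1 to 20 were even, so counts divided by 2 were also tested.

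Identifiers were matched without version to GENCODE release 44, which named 60463 of 60649 rows. The filterByExpr function of edgeR 4.0.16 (R 4.3.3) chose the genes, which were scaled by TMM and tested with glmQLFit (robust) and glmQLFTest, two-sided, with Benjamini-Hochberg adjustment over all 22038 genes and a threshold of 0.05. Standard errors were obtained by dividing the size of a log2 fold change by the root of its F statistic. CPM use the TMM factors, and log2 CPM a prior count of 2. Exonic length is the union of GENCODE exons, while the GC and length trends use the longest transcript of a gene. Sequences were read from the genome at RefSeq or GENCODE positions. Functions were tested on simulated counts.

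Genes named in full were the 8 host genes with the highest level per kilobase, those with an unadjusted p under 0.05, those called in replicates 2 and 3, and those without overlap between groups. Of each list the 2 genes with the smallest p were named, and of hosted snoRNAs the 5 with the highest mean count. METTL3, the markers and the extremes of a range are named besides. The members, lists and alternatives were chosen with earlier results of these data known. Deviations of same-numbered libraries from their group means correlated at 0.33, 0.12 and 0.17 in replicates 1, 2 and 3. All exceed the set minimum of 0.1, so a replicate block was run as an alternative, while the main fit used no pairing. Libraries of different numbers also reached 0.13 and 0.20, so the values do not settle which of replicates 2 and 3 pair. This pairing comes from the values, not the labels. Alternatives were DESeq2 1.42.0, which the authors used, other scalings, other filters, halved counts, the replicate block, each library left out, replicates 2 and 3 alone, removal of GC and length trends (splines with 5 degrees of freedom), and genes with under 10% shared exon.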

Additional observations from a re-analysis of the deposited data

How the results depend on the processing

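The count of host genes called was 0 with all 6 libraries under every alternative, the replicate block and each library left out included, and 2, 4 and 1 in replicates 2 and 3 alone with edgeR, with edgeR and trends removed, and with DESeq2. The block gave 3 host genes with an unadjusted p under 0.05 and a median log2 fold change of -0.13, and changed no call. The 2 host genes with an unadjusted p under 0.05 became 1 with DESeq2 and 6 in each of the 3 fits of replicates 2 and 3. In the edgeR fits of these replicates 27.1% and 32.1% of all genes tested had one. The DESeq2 share, 12.2%, is over all genes with a p, without edgeR's filter on low counts, and cannot be set beside the host genes. They were 0 of the 8 tested genes with under 10% of shared exon, and 0 to 3 with 1 library left out. Without vector replicate 1 they were 3, where 16.2% of all genes had one. For the other counts with 1 library left out the share over all genes is not given. The host genes without overlap between groups, 4 with all libraries, were 12 in replicates 2 and 3 (54.8% of all genes) and 13 there with trends removed (57.9%). They were 1 of the 8 with little shared exon, and 4 to 8 with 1 library left out. Without vector replicate 1 there were 8, in either direction, where 39.6% of all genes lay without overlap. For the other counts with 1 library left out the share over all genes is not given here either. The median log2 fold change of the tested host genes was 0.083, 0.12 and 0.092 in the 3 fits of replicates 2 and 3. It was -0.25 to 0.078 with 1 library left out, and above 0 there without vector replicate 1. Of all genes, 225 were called with DESeq2, 560 without a filter, 1 with trends removed, 0 to 367 with 1 library left out, and 3362, 4704 and 3095 in the 3 fits of replicates 2 and 3.

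Against -0.23, -0.17 and -0.21 with all libraries, and lows of -0.37, -0.29 and -0.40 without vector replicate 2, SNHG1, SNHG15 and SNHG19 were higher with METTL3 in those 3 fits, SNHG1 at 0.088, 0.12 and 0.097, SNHG15 at 0.14, 0.18 and 0.15, and SNHG19 at 0.31, 0.25 and 0.32, and without vector replicate 1, at 0.078, 0.17 and 0.37. SNHG16 and SNHG26, at 0.013 and 0.0095, ranged from -0.025 to 0.078 and from -0.11 to 0.15 with 1 library left out. With counts only and 3 libraries a group, the median standard error of a host gene, 0.197, is larger than the median difference.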
